A study of Mus musculus with 62 samples.

Results

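The genes described here are 10 transcripts that are used in mouse brain to tell the subfields of the hippocampus apart, out of 27179 genes in the count table of adult hippocampus. They were taken by name and not by any measured value, although earlier results of these data were known when they were chosen. 4 of them mark the dentate gyrus (Prox1, C1ql2, Dsp and Tdo2), 3 mark CA1 (Wfs1, Fibcd1 and Mpped1), 2 mark CA3 (Iyd and Bok) and 1 marks CA2 (Amigo2). All 10 passed the filter on low counts in every comparison. None of them lies on chromosomes 16 or 17, which hold the segments that Ts65Dn mice carry in an extra copy.

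The libraries came from whole hippocampus of mice aged 6 weeks, 1 library per animal, and every animal had the mixed background that the labels give as DBA/2J x B6EiC3Sn/J. Euploid mice carry 2 copies of the distal chromosome 16 segment, Ts65Dn mice carry an extra chromosome with that segment and the proximal part of chromosome 17, and Ts65Dn;Brwd1+/- mice carry the same extra chromosome together with 1 mutant copy of Brwd1, a chromatin gene within the segment, in all tissues. There were 8 euploid, 7 Ts65Dn and 8 Ts65Dn;Brwd1+/- males and 8, 8 and 8 females, 47 libraries in all, with 33.6 to 137.1 M counted reads each. The comparisons ask whether the makeup of the dissected hippocampus by subfield differed between genotypes and between the sexes, and how much it varied from library to library.

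The hippocampus is a loop of neuron layers with separate transcriptional identities. Granule cells of the dentate gyrus send their mossy fibres to the pyramidal cells of CA3, CA3 sends Schaffer collaterals to CA1, and CA2 is a small field between them. Each layer is dense, so a gene restricted to a layer reports in a bulk extract how much RNA that layer contributed. Whether each gene described here was restricted to its layer in these mice was not tested. Fewer cells of a type and less RNA per cell cannot be told apart in such an extract.

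The promoter windows of 6 of these genes are shown because the results turn on them: Prox1, Dsp, Tdo2 and Iyd varied together from library to library, and C1ql2 and Wfs1 differed between female genotypes. The windows are from RefSeq, build GRCm38.p6, and run from 250 bases before to 50 bases after the annotated start, 5′ to 3′ on the strand of the gene. All 10 genes had a window in that table, with 12 entries between them, and the first entry of each gene is printed. Capitals mark CANNTG, the E-box core bound by basic helix-loop-helix proteins, which reads the same on both strands. The positions are chr1:190170778-190171077, minus strand for Prox1, chr13:38151044-38151343, plus strand for Dsp, chr3:81975679-81975978, minus strand for Tdo2, chr10:3540024-3540323, plus strand for Iyd, chr1:120340332-120340631, plus strand for C1ql2 and chr5:36988933-36989232, minus strand for Wfs1.
Prox1: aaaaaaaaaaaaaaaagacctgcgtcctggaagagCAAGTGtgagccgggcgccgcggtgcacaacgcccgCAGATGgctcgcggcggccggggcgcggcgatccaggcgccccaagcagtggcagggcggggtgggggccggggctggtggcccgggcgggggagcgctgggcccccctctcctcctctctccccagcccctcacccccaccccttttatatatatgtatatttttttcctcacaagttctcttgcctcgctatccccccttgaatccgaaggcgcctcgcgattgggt
Dsp: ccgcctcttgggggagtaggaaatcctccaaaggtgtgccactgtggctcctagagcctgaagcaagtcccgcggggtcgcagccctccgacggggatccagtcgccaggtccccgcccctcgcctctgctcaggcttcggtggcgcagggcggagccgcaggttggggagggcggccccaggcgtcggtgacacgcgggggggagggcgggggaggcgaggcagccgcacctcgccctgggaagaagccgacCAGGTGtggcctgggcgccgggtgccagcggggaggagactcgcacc
Tdo2: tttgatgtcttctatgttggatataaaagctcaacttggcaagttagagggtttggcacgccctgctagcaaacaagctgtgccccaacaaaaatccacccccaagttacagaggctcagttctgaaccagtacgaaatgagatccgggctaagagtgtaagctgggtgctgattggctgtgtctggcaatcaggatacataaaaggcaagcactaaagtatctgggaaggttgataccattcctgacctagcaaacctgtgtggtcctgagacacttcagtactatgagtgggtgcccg
Iyd: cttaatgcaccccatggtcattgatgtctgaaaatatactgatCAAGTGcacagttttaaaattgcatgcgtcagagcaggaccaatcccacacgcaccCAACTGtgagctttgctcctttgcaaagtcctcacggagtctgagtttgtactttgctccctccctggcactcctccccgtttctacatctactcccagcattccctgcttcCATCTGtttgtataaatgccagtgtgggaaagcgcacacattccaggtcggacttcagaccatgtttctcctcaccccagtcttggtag
C1ql2: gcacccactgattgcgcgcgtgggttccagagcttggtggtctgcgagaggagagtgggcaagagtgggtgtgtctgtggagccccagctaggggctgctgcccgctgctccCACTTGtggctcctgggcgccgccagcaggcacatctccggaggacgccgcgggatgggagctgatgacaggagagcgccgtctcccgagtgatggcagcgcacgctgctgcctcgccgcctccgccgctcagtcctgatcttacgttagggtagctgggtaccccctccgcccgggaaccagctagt
Wfs1: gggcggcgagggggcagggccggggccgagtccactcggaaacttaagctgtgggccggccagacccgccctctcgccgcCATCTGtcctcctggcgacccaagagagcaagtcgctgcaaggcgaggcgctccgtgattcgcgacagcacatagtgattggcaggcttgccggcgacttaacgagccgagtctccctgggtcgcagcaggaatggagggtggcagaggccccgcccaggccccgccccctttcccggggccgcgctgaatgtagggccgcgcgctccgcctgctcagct
Iyd held 3 copies of the motif, Prox1 2, Dsp, C1ql2 and Wfs1 1 each, and Tdo2 held none. Of all 32851 windows of this length, 72.3% held at least 1 copy and 17.6% held at least 3. The 4 genes that moved together had between 0 and 3 copies.

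Some libraries stood apart from the rest before any comparison was made. In the female euploid library B125 and the female Ts65Dn;Brwd1+/- library B176, the deviations of genes from their group mean fell with transcript length. The slopes were -0.357 and -0.322 log2 units per doubling of length, whereas the other 45 libraries had slopes between -0.091 and 0.089. In 2 libraries the sex-linked genes went against the label, female euploid B85 and male Ts65Dn B88. In 4 others, male Ts65Dn B145, male Ts65Dn;Brwd1+/- B138 and T35 and female Ts65Dn;Brwd1+/- B136, the triplicated segment was near the euploid level. Over 34 genes of the segment, their median log2 difference from the euploid mean of the labelled sex was 0.0326 to 0.0444, under a cutoff of 0.25. All of these libraries stayed in the tests under their labels, and the main differences are given again without the 6 libraries against their label.

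Of the 4 genes whose promoters are not shown, Fibcd1 lies at chr2:31813290-31846964, Mpped1 at chr15:83779472-83858487, Bok at chr1:93685575-93695770 and Amigo2 at chr15:97244074-97247287 in the same build. Levels are given as log2 CPM, the counts of a gene scaled to a common library total. Compared per kilobase of exon, Mpped1 of CA1, which encodes a metallophosphoesterase domain protein, had the highest mean level at 6.01 ± 0.19 (SD, n = 47), followed by Wfs1 at 5.61 ± 0.46 and C1ql2 at 5.43 ± 0.41. Fibcd1 was at 5.15 ± 0.22, Bok at 4.96 ± 0.23, Amigo2 at 3.42 ± 0.23, Prox1 at 3.03 ± 0.53 and Dsp at 2.91 ± 0.57. Iyd at 2.08 ± 0.42 and Tdo2 at 0.50 ± 0.41 were the lowest. Neighbours in this order mostly lay within 1 SD of each other, so that only the steps from Bok to Amigo2, from Dsp to Iyd and from Iyd to Tdo2 exceeded the SD of both genes.

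**Figure D1:**
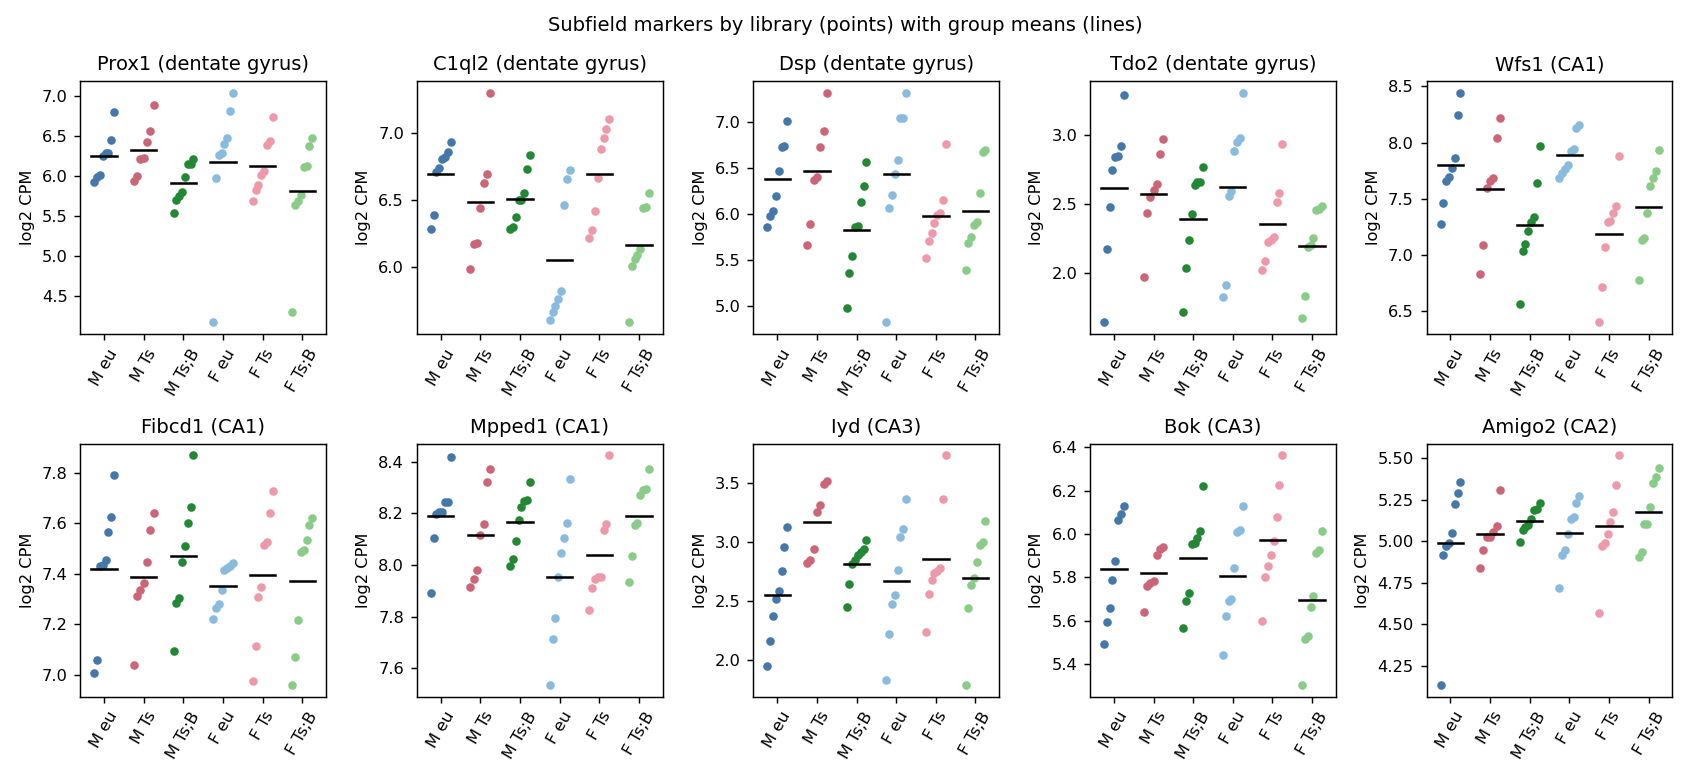
Levels of the 10 genes in log2 CPM on the vertical axis, 1 panel per gene, with each point a library and each line a group mean. Groups run from left to right as male (M) and female (F) euploid (eu), Ts65Dn (Ts) and Ts65Dn;Brwd1+/- (Ts;B). Prox1 has a low point in each of the female euploid and female Ts65Dn;Brwd1+/- groups, at 4.16 and 4.30, and in the 3 female groups C1ql2 is highest in Ts65Dn.

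In males, Ts65Dn differed from euploid in 1 of the 10 genes. Iyd, which encodes the iodotyrosine deiodinase that recovers iodide and serves as a CA3 marker, was at 1.95, 2.55 and 3.12 log2 CPM in the lowest, median and highest of the 8 euploid libraries. In the 7 Ts65Dn libraries it was at 2.82, 3.25 and 3.51, and in the 8 Ts65Dn;Brwd1+/- libraries at 2.45, 2.87 and 3.02. All 7 Ts65Dn libraries were above the euploid median, although the ranges overlapped. The difference was 0.60 on the log2 scale (SE 0.15, 1.51-fold, edgeR adjusted p = 0.0761), against 0.795% of all tested genes called in this comparison.

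The other CA3 marker did not follow Iyd. Bok, a BCL2-family protein, was at 5.84 ± 0.24 (SD, n = 8) in euploid and 5.82 ± 0.11 (n = 7) in Ts65Dn males, with a fitted log2 difference of -0.03 (SE 0.10) whose 2-SE range ran from -0.23 to 0.16. Of 6 further CA3 genes none passed the test, and their median log2 difference was -0.22, opposite in sign to that of Iyd. The dentate gyrus genes had a median log2 difference of -0.00 and the CA1 genes of -0.07, beside 0.002 for all tested genes. The Iyd call was close to the threshold. Without male Ts65Dn B145, B40, B45 or B52, or male euploid B110, B122, B139, B79 or B84, its adjusted p passed 0.1, and over all 23 fits that left out 1 library the log2 difference lay between 0.52 and 0.69 with adjusted p between 0.0236 and 0.223. Without all libraries that went against their label it was 0.60 with an adjusted p of 0.11, beside 1.54% of all genes called.

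Between Ts65Dn;Brwd1+/- and Ts65Dn males, edgeR called 0 of the 10 genes and 0% of all genes. DESeq2 also called 0 of the 10, and 0.00593% of all genes. At an unadjusted p under 0.05 there were 3, all lower in Ts65Dn;Brwd1+/-, beside 1261 of all 16851 tested genes. Prox1, the homeobox factor that specifies granule cells, was at 5.94, 6.23 and 6.89 log2 CPM in the lowest, median and highest Ts65Dn library and at 5.54, 5.89 and 6.21 in Ts65Dn;Brwd1+/-. All 8 Ts65Dn;Brwd1+/- libraries were below the Ts65Dn median, and the log2 difference was -0.43 (SE 0.14, edgeR adjusted p = 0.626). Dsp, the desmosomal plaque protein desmoplakin, differed by -0.66 (SE 0.25) and Iyd by -0.37 (SE 0.15), both with the same adjusted p of 0.626. Without the libraries against their label the differences were -0.37 for Prox1, -0.62 for Dsp and -0.38 for Iyd (edgeR adjusted p = 0.519, 0.524 and 0.538).

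Whether these differences were called depended on whether hidden factors were removed. With 1 factor estimated by RUVr, a method that takes unwanted variation from model residuals, Prox1 and Dsp were called by edgeR, beside 1.46% of all genes. With 3 factors Iyd was called as well, beside 3.47% of all genes in edgeR and 5.89% in DESeq2. The size of the differences hardly moved over all genes. Their median absolute log2 difference in edgeR was 0.0695 without factors, 0.0692 with 1 and 0.0695 with 3. C1ql2, a secreted C1q-like protein of mossy fibre synapses, differed by -0.03 (SE 0.15, 2-SE range -0.33 to 0.27), and by 0.22 without the libraries against their label. Tdo2, the tryptophan dioxygenase that opens the kynurenine pathway, differed by -0.18 (SE 0.19).

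Against euploid males, Ts65Dn;Brwd1+/- males had 0 of the 10 genes called by edgeR and 0 by DESeq2, beside 0.576% of all genes by edgeR and 1.72% by DESeq2. At an unadjusted p under 0.05 there were 3 genes, Prox1 at -0.35 (SE 0.14), Dsp at -0.53 (SE 0.24) and Wfs1 at -0.53 (SE 0.21) on the log2 scale. The same held for 1702 of all 16851 tested genes. Wfs1, which encodes the endoplasmic reticulum protein wolframin, was at 7.28, 7.74 and 8.45 log2 CPM in the lowest, median and highest euploid male and at 6.56, 7.25 and 7.97 in Ts65Dn;Brwd1+/-. The ranges overlapped. Without the libraries against their label these differences were -0.36 for Prox1, -0.55 for Dsp and -0.67 for Wfs1 (edgeR adjusted p = 0.273, 0.343 and 0.118).

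**Figure D2:**
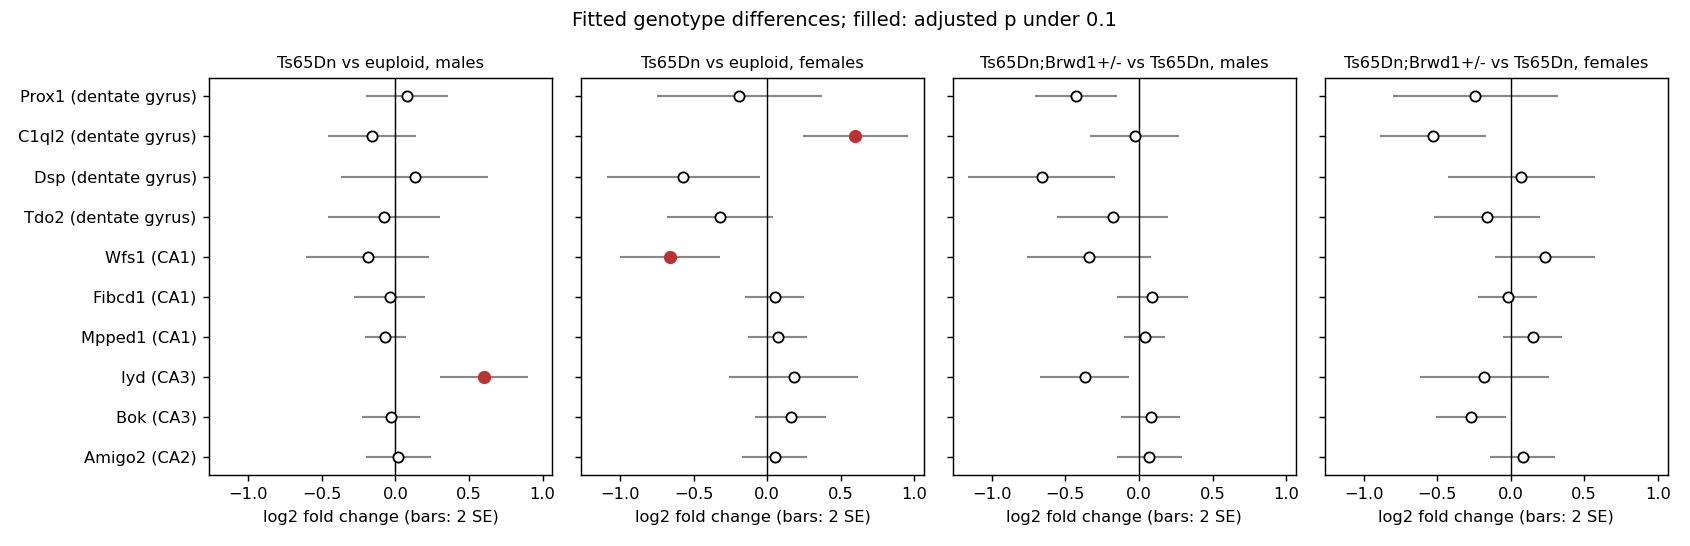
Fitted log2 fold changes of the 10 genes on the horizontal axis, with bars of 2 SE, 1 panel per genotype comparison. Filled points have an edgeR adjusted p under 0.1 and these are Iyd in the male and C1ql2 and Wfs1 in the female comparison of Ts65Dn with euploid.

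In females, Ts65Dn differed from euploid in 2 of the 10 genes, in opposite directions, beside 3.17% of all tested genes, and DESeq2 called 6.13% of all genes. Wfs1 was at 7.69, 7.86 and 8.16 log2 CPM in the lowest, median and highest euploid female and at 6.40, 7.30 and 7.88 in Ts65Dn. The Ts65Dn;Brwd1+/- females lay between them, at 6.78, 7.50 and 7.94. In 7 of 8 Ts65Dn libraries Wfs1 was below the euploid median, and euploid females were a narrow group with an SD of 0.18 compared with 0.46 in Ts65Dn. It fell by 0.66 on the log2 scale (SE 0.17, 0.63-fold, edgeR adjusted p = 0.0441, DESeq2 adjusted p = 0.00703).

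The call for Wfs1 stood in all 24 fits that left out 1 library, with log2 differences from -0.78 to -0.57 and adjusted p between 0.0131 and 0.0991. It was -0.68 (adjusted p = 0.0486) without the libraries that went against their label, beside 1.9% of all genes. Neither of the other CA1 markers was called. Fibcd1, a membrane receptor for acetylated glycans, was at 7.35 ± 0.09 in euploid and 7.40 ± 0.26 in Ts65Dn females (SD, n = 8 each), a fitted log2 difference of 0.05 (SE 0.10, 2-SE range -0.15 to 0.26). Mpped1 differed by 0.07 (SE 0.10, 2-SE range -0.13 to 0.27). Of 6 further CA1 genes, 1 passed the test and it was higher: Spink8, a Kazal-type serine peptidase inhibitor, by 0.35 (SE 0.11, edgeR adjusted p = 0.0944, or 0.171 at a difference of 0.33 without the libraries against their label).

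C1ql2 was higher in Ts65Dn females. In euploid females it was at 5.61, 5.79 and 6.72 log2 CPM in the lowest, median and highest library, in Ts65Dn at 6.21, 6.77 and 7.10, and in Ts65Dn;Brwd1+/- at 5.59, 6.11 and 6.55. The euploid libraries fell into 5 between 5.61 and 5.82 and 3 between 6.46 and 6.72. The highest Ts65Dn females were T141, T139 and T142, at 0.411, 0.332 and 0.265 above their group mean, followed by B103 at 0.19. They are the only females whose identifiers start with T, and all euploid females have identifiers starting with B. The part of this in the C1ql2 difference was not tested. All 8 Ts65Dn females were above the euploid median, and C1ql2 rose by 0.60 (SE 0.18, 1.52-fold, edgeR adjusted p = 0.0957, DESeq2 adjusted p = 0.0302).

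This call was lost in 13 of 24 fits that left out 1 library. These were the fits without female Ts65Dn B103, B134, T139, T141 or T142, without female Ts65Dn;Brwd1+/- B113, B167 or B181, or without female euploid B12, B17, B173, B184 or B85, and over all 24 the difference ran from 0.54 to 0.72 with adjusted p from 0.0442 to 0.18. Without the libraries that went against their label it was 0.57 (adjusted p = 0.181). None of the other dentate gyrus markers was called, and the log2 difference was -0.19 for Prox1 (SE 0.28), -0.57 for Dsp (SE 0.26, adjusted p = 0.271) and -0.32 for Tdo2 (SE 0.18). Among 8 further dentate gyrus genes, Plk5, a polo-like kinase, was lower by 0.54 (SE 0.15, edgeR adjusted p = 0.0596, or 0.116 without the libraries against their label) and the others were not called, with a median log2 difference of -0.26 over the 8.

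Leaving out the female libraries B125 and B176, an alternative chosen after the data were seen, changed this comparison. Called genes went from 3.17% to 17.4% of those tested, and Dsp was added to the called members, at -0.71 (adjusted p = 0.0403), while C1ql2 was at 0.66 (adjusted p = 0.0364) and Wfs1 at -0.65 (adjusted p = 0.0301). Leaving out B125 alone also called Dsp, beside 9.32% of all genes. Prox1 was at -0.33 (adjusted p = 0.23) without both. Among markers of neighbouring tissue, Rspo1 of the neocortex list was higher in Ts65Dn females by 1.05 (SE 0.21, edgeR adjusted p = 0.00737), while the mean level of the 6 neocortex genes ran from 3.87 to 4.67 in euploid and from 4.02 to 4.81 in Ts65Dn females. The thalamus list ran from 3.43 to 4.06 in euploid and from 3.12 to 5.09 in Ts65Dn, with T142 the highest, and its part in the result was not tested. In the list of immature granule neurons, Sox11, a transcription factor of newborn neurons, was lower by 0.37 (SE 0.10, edgeR adjusted p = 0.0525), and the difference was -0.31 (adjusted p = 0.141) without the libraries against their label.

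Between Ts65Dn;Brwd1+/- and Ts65Dn females, edgeR called 0 of the 10 genes and 0% of all genes, and DESeq2 called 0 of the 10 and 0.0817% of all genes. The unadjusted p was under 0.05 for C1ql2, which differed by -0.53 (SE 0.18, adjusted p = 1.0) with all 8 libraries below the Ts65Dn median, and for Bok, at -0.27 (SE 0.12). These were -0.52 and -0.23 without the libraries against their label. With all libraries, 604 of 17146 tested genes had an unadjusted p under 0.05. Against euploid females, edgeR and DESeq2 called 0 of the 10, beside 0.729% of all genes by edgeR and 1.75% by DESeq2. An unadjusted p under 0.05 was found for 1924 of 17146 tested genes and for 3 of the 10. These were Tdo2 at -0.48 (SE 0.18), Wfs1 at -0.43 (SE 0.17) and Mpped1 at 0.22 (SE 0.10). Without the libraries against their label these were -0.49, -0.54 and 0.17, with edgeR adjusted p of 0.434, 0.27 and 0.645. Without B125, edgeR called Dsp, Mpped1 and Tdo2 in that comparison, beside 8% of all genes.

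The female and male genotype differences were compared by their interaction. For Ts65Dn against euploid edgeR called 0 of the 10 and 0% of all genes, and 1935 of 17427 tested genes had an unadjusted p under 0.05. Of the 10, only C1ql2 did, with a difference between the sexes of 0.77 (SE 0.24, edgeR adjusted p = 0.263). DESeq2 called it at an adjusted p of 0.0977, beside 0.574% of all genes. The edgeR value was 0.98 (adjusted p = 0.309) without the libraries against their label and 0.82 (adjusted p = 0.108) without B125 and B176. The male difference was -0.16 for C1ql2 (SE 0.15) and -0.19 for Wfs1 (SE 0.21), and the female difference for Iyd was 0.18 (SE 0.22). For Wfs1 the interaction was -0.46 (SE 0.27) and for Iyd -0.41 (SE 0.28), neither past an unadjusted p of 0.05, so that these genes were called in 1 sex each without a shown difference between the sexes. For Ts65Dn;Brwd1+/- against Ts65Dn edgeR and DESeq2 called 0 of the 10, and the share of all genes was 0% and 0.00574%. Bok, C1ql2 and Wfs1 had an unadjusted p under 0.05, beside 650 of 17427 tested genes.

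Among euploid mice, females differed from males in 1 of the 10 genes, beside 9.74% of all genes, so that the count was near the share of all genes. C1ql2 was at 6.29, 6.77 and 6.93 log2 CPM in the lowest, median and highest male, and all 8 females were below the male median. It was lower by 0.59 on the log2 scale (SE 0.17, 0.67-fold, edgeR adjusted p = 0.0344), and the call stood in all 47 fits that left out 1 library. Without the libraries against their label the difference was -0.55 (adjusted p = 0.0661, beside 5.27% of all genes). The same female euploid libraries enter the female genotype difference and the interaction of C1ql2, so these results are not independent. Its mean was 6.05 log2 CPM in female euploid, 6.69 in both male euploid and female Ts65Dn, and 6.48 in male Ts65Dn. Mpped1 was lower by 0.22 (SE 0.09, adjusted p = 0.131), and by 0.28 (adjusted p = 0.0307, beside 18.6% of all genes) without B125 and B176. Its difference was -0.19 (adjusted p = 0.274) without the libraries against their label. Among Ts65Dn mice, edgeR and DESeq2 called 0 of the 10, beside 0.0287% and 0.0115% of all genes, and Dsp and Wfs1 had an unadjusted p under 0.05, at -0.54 (SE 0.26) and -0.41 (SE 0.20), or -0.47 and -0.40 without the libraries against their label. With all libraries, 773 of 17427 tested genes had an unadjusted p under 0.05 in that comparison.

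The 25 further subfield genes, 8 for the dentate gyrus, 6 for CA1, 6 for CA3 and 5 for CA2, gave 3 calls over all comparisons. The calls fell in the female Ts65Dn to euploid comparison and between the euploid sexes, where 3.17% and 9.74% of all genes were called. Beside Plk5 and Spink8 in females, Map3k15 of CA2, a stress-activated kinase, was higher in euploid females than in euploid males by 0.60 (SE 0.21, edgeR adjusted p = 0.0794, or 0.078 without the libraries against their label). Of the 2 most abundant genes of each list, edgeR called none between Ts65Dn and euploid males. Ccn3 and Rgs14 had an unadjusted p under 0.05, beside 1502 of 16851 tested genes. Stxbp6, a syntaxin-binding protein of the dentate gyrus, differed by -0.01 (SE 0.10), Lct, lactase, by 0.19 (SE 0.23), Grik4, a kainate receptor subunit of CA3, by -0.14 (SE 0.09), Nectin3, an adhesion protein, by -0.05 (SE 0.09), and Pou3f1, a POU factor of CA1, by 0.07 (SE 0.12). Ccn3, a secreted matrix protein of CA1, differed by -0.37 (SE 0.14, edgeR adjusted p = 0.423), Rgs14 of CA2, a regulator of G-protein signalling, by 0.33 (SE 0.11, adjusted p = 0.265) and Necab2, a calcium-binding protein, by -0.08 (SE 0.15).

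In females the same genes differed between Ts65Dn and euploid by -0.20 for Stxbp6 (SE 0.13), -0.47 for Lct (SE 0.26), 0.13 for Grik4 (SE 0.11), 0.22 for Nectin3 (SE 0.12), -0.02 for Pou3f1 (SE 0.11), 0.30 for Ccn3 (SE 0.21), 0.08 for Rgs14 (SE 0.10) and 0.16 for Necab2 (SE 0.16), and edgeR called none of them. Between Ts65Dn;Brwd1+/- and Ts65Dn males, Lct differed by -0.54 (SE 0.23) and Ccn3 by 0.49 (SE 0.14), with edgeR adjusted p of 0.626 and 0.616. Among immature granule neuron genes, Dcx was higher by 0.75 (SE 0.24, edgeR adjusted p = 0.0593) and Eomes by 1.73 (SE 0.56, adjusted p = 0.0549) in euploid females against euploid males, and Eomes was lower by 2.98 (SE 0.70, adjusted p = 0.0555) in Ts65Dn;Brwd1+/- against euploid females. The mean level of that list was highest in female euploid B85, at 5.05, beside a group median of 3.37. Without the libraries against their label, of which B85 is 1, Dcx was at 0.10 (adjusted p = 0.747) and Eomes at 0.28 (adjusted p = 0.801) between the sexes, and Eomes at -1.46 (adjusted p = 0.296) between the female genotypes.

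Averaged by subfield, the mean log2 level of the dentate gyrus genes minus that of the CA1 genes was -2.32 ± 0.33, -2.24 ± 0.28 and -2.48 ± 0.29 in euploid, Ts65Dn and Ts65Dn;Brwd1+/- males (SD, n = 8, 7 and 8). In females it was -2.41 ± 0.54, -2.25 ± 0.31 and -2.61 ± 0.48 (n = 8 each). In each sex the largest gap between genotype means was smaller than the largest SD of a group, and single libraries ran from -3.52 in B125 to -1.72 in B21, both female euploid. The means were -2.32, -2.31 and -2.43 in males and -2.42, -2.25 and -2.57 in females without the libraries against their label. The same balance without C1ql2 and Wfs1 was -2.72 ± 0.35, -2.63 ± 0.30 and -3.11 ± 0.38 in males and -2.57 ± 0.75, -2.89 ± 0.45 and -3.10 ± 0.48 in females, and without B125 and B176 the female means were -2.34, -2.89 and -2.98. Taken over the 8 further dentate gyrus and 6 further CA1 genes it was -0.70 ± 0.26, -0.81 ± 0.26 and -1.05 ± 0.20 in males and -0.49 ± 0.30, -0.85 ± 0.20 and -0.99 ± 0.20 in females, so that here the gap between euploid and Ts65Dn;Brwd1+/- means exceeded the SD of each group. No test was made of these balances. The dentate gyrus minus CA3 balance was 1.29 ± 0.14 in euploid males, 0.97 ± 0.14 in Ts65Dn and 0.81 ± 0.26 in Ts65Dn;Brwd1+/-, with ranges that overlapped. Without the libraries against their label, it ran from 0.87 to 0.93 in 5 Ts65Dn males and from 1.0 to 1.47 in euploid males. These 2 ranges did not overlap, while Ts65Dn;Brwd1+/- males ran from 0.54 to 1.32. In females the balance was 1.09 ± 0.35, 0.88 ± 0.20 and 0.86 ± 0.37, and the ranges overlapped with or without those libraries. Iyd is 1 of the 2 CA3 genes behind it. The genes behind the CA1 mean did not vary together within groups. Wfs1 had r = -0.412 with Fibcd1 and 0.171 with Mpped1, and Fibcd1 had r = -0.037 with Mpped1.

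The median size of the Ts65Dn to euploid difference over the 10 genes was 0.08 log2 units in males and 0.18 in females, beside 0.07 and 0.10 for all tested genes. Dsp had a within-group SD of 0.54 log2 units and Prox1 of 0.525, at the 82.4th and 81.7th percentile of all tested genes. The median over the 10 genes was 0.371, beside 0.151 for the 10852 tested genes whose mean level lay within the range of the members. Without B125 and B176 the SD of Prox1 was 0.322, of Dsp 0.467 and of the median member 0.334, and without the libraries against their label these were 0.554, 0.539 and 0.345. Mpped1 was the steadiest, with an SD of 0.18, and Bok, Fibcd1 and Amigo2 were between 0.222 and 0.235. Amigo2, a leucine-rich repeat adhesion protein and the CA2 marker, ran from 4.13 to 5.52 over all libraries, and its Ts65Dn to euploid difference was 0.02 (SE 0.11) in males and 0.05 (SE 0.11) in females.

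The markers did not vary independently. Over the 45 pairs of genes, 15 had a correlation of deviations from the group means with an adjusted p under 0.05, 8 of them positive. The share among pairs of other genes was not computed, so this count does not set the markers apart from other genes. Each p is from 100000 permutations over the 47 libraries, two-sided, adjusted over the 45 pairs, and 1e-05 is the smallest they can give. Prox1 and Dsp moved most closely, with Pearson r = 0.837 and Spearman rho = 0.832 (permutation p = 1e-05, adjusted p = 0.000225). The r was 0.837 again without the 2 libraries farthest from the median, B125 and B176, 0.871 among males and 0.885 among females. Many other genes were closer to Prox1. Among 17427 tested genes ordered by r with Prox1, Dsp was at rank 444, Tdo2 at 3431 and C1ql2 at 6295. By r with Dsp, Prox1 was at rank 36.

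Iyd joined this group although it is listed for CA3. It correlated with Dsp at r = 0.682 and rho = 0.68, with Prox1 at r = 0.677 and rho = 0.74, and with Tdo2 at r = 0.613 and rho = 0.633, each with an adjusted permutation p of 0.000225. Without the 2 farthest libraries these were 0.60, 0.72 and 0.589. With Bok, its partner in CA3, Iyd had r = 0.593 and rho = 0.624 (permutation p = 7e-05, adjusted p = 0.00063, and 0.518 without the 2 farthest). C1ql2, listed for the dentate gyrus, reached an adjusted p under 0.05 with no other marker, and its r with Prox1 was 0.182, or 0.466 without the 2 farthest.

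CA1 markers split. Wfs1 and Fibcd1 were inversely related at r = -0.412 and rho = -0.396 (permutation p = 0.0106, adjusted p = 0.0342), and r was -0.437 without the 2 farthest libraries and -0.677 without the libraries against their label. Mpped1 was inverse to Prox1 at r = -0.555 and rho = -0.574, to Iyd at r = -0.575 and rho = -0.52, and to Bok at r = -0.507 and rho = -0.526, with adjusted permutation p of 0.00191, 0.00191 and 0.00213, and with r of -0.514, -0.522 and -0.449 without the 2 farthest libraries. Fibcd1 instead moved with Amigo2 at r = 0.526 and rho = 0.462 (permutation p = 0.00049, adjusted p = 0.00213, 0.474 without the 2 farthest), whereas Wfs1 was inverse to Amigo2 at r = -0.514 and rho = -0.521 (adjusted permutation p = 0.00191, -0.495 without the 2 farthest). Pairs from the same subfield had a median r of 0.20 over 10 pairs and pairs from different subfields of 0.08 over 35 pairs.

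**Figure D3:**
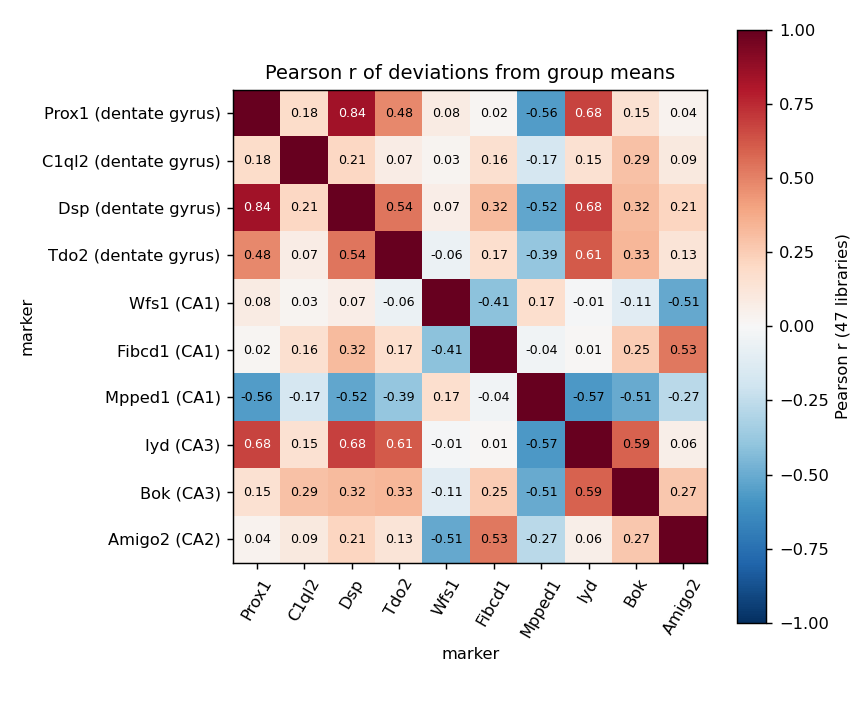
Pearson r between the deviations of each pair of genes from their group means over 47 libraries, with both axes listing the 10 genes and colour giving r. Prox1, Dsp, Tdo2 and Iyd form a positive block with r between 0.479 and 0.837, and Mpped1 is negative against all 4.

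The genes most like each marker, by r over the 47 libraries and with no statement on shared function, were as follows. For Prox1 they were Plxna4 (r = 0.964), Ptprj and Lyst (both 0.952), and Prox1 to Plxna4 was 0.902 without B125 and B176. For Dsp they were Npnt (0.892), Kbtbd11 (0.891) and Camk2a (0.89), where Npnt is itself in the list of further dentate gyrus genes. Iyd was nearest to Enc1 (0.854), Ptpn3 (0.844) and Cd109 (0.838), Tdo2 to Gm12359 (0.686), Vwa3b (0.67) and Rab40b (0.652), and C1ql2 to Glrx2 (0.671), Thrsp (0.592) and Cyth4 (0.574). Among CA1 genes, Wfs1 was nearest to Scn4b (0.784), Gm19410 (0.747) and 9130024F11Rik (0.718), Fibcd1 to Lmo1 (0.718), Galnt16 (0.696) and Thra (0.67), and Mpped1 to Kcnc4 and Olfm2 (both 0.84) and Ttc7b (0.836). Bok was nearest to Lrrc10b (0.79), Serpina3n (0.77) and Cnih2 (0.766), and Amigo2 to Kcng2 (0.714), Mc4r (0.67) and Galnt16 (0.654).

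The deviations of the markers were also set against other measures of each library. Of 120 relations between a marker and 1 of 12 measures (10 gene lists, the library total and the length slope), 33 had an adjusted p under 0.05. The share for other genes was not computed. Prox1 and Dsp followed the mean of the 8 further dentate gyrus genes at r = 0.852 and 0.878 (rho = 0.863 and 0.878, adjusted permutation p = 0.000171), and Mpped1 was inverse to it at r = -0.674 (rho = -0.661, adjusted permutation p = 0.000171). Without the 2 farthest libraries these were 0.805, 0.832 and -0.615. That mean also followed Iyd, listed for CA3, at r = 0.734, or 0.664 without the 2 farthest. The mean of the further CA1 genes had r = 0.129 with Wfs1, 0.378 with Fibcd1 and -0.055 with Mpped1. Its r was 0.575 with Dsp and 0.514 with Prox1, or 0.393 and 0.319 without the 2 farthest. The mean of the further CA3 genes had r = -0.343 with Iyd and -0.246 with Bok.

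With the neocortex list, 8 of 10 markers had a relation at an adjusted permutation p under 0.05. Mpped1 rose with it at r = 0.719 and rho = 0.675 (adjusted permutation p = 0.000171, 0.684 without the 2 farthest), and Dsp fell with it at r = -0.54 and rho = -0.554 (adjusted permutation p = 0.00184, and -0.52). Fibcd1 was inverse to the thalamus list at r = -0.62 and rho = -0.641 (adjusted permutation p = 0.0003, and -0.673), and Wfs1 rose with it at r = 0.476 and rho = 0.508 (adjusted permutation p = 0.0066, and 0.456). The striatum list had an adjusted p under 0.05 with 7 of 10 markers, and was inverse to Dsp at r = -0.635 and rho = -0.658 (adjusted permutation p = 0.000171, and -0.60) and to Prox1 at r = -0.564 and rho = -0.615 (adjusted permutation p = 0.00103, and -0.499). The most abundant genes of the lists ran over wide ranges: Ttr of the choroid plexus from 3.41 to 12.5 log2 CPM, Tshz2 of the neocortex from 3.56 to 7.15 and Prkcd of the thalamus from 4.70 to 7.21. Rgs9 of the striatum ran from 3.16 to 4.71, Mbp of myelin from 10.64 to 11.92 and Neurod1 of immature granule neurons from 4.86 to 5.66. All 10 choroid plexus, 6 neocortex and 6 thalamus genes passed the filter on low counts. Their part in the marker differences was not tested.

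**Figure D4:**
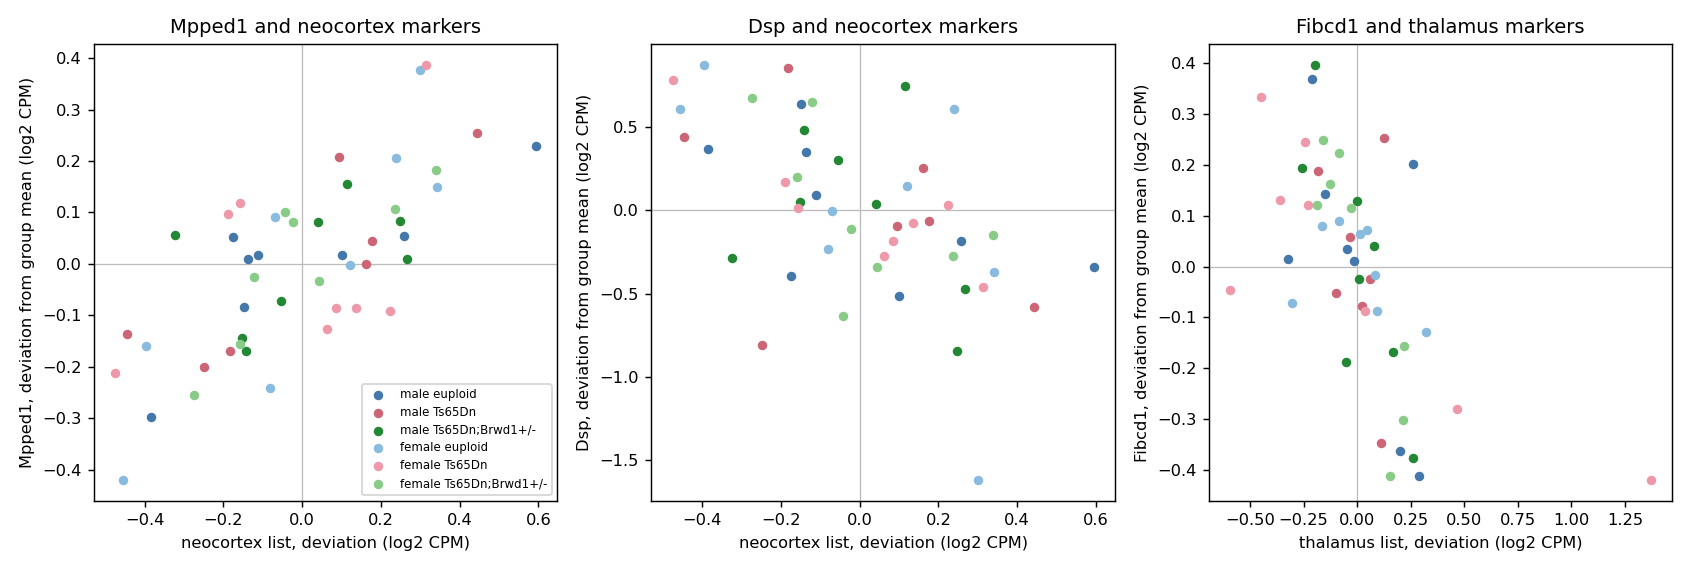
Deviations from the group mean of Mpped1 and Dsp against those of the neocortex list, and of Fibcd1 against those of the thalamus list, in log2 units on both axes, with each point 1 of 47 libraries. Mpped1 rises (r = 0.719), Dsp falls (r = -0.54) and Fibcd1 falls (r = -0.62).

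The length slope moved with Prox1 at r = 0.862 and rho = 0.691 (adjusted permutation p = 0.000171) and with Dsp at r = 0.604 and rho = 0.491 (adjusted permutation p = 0.000667). Without B125 and B176 these were 0.543 and 0.433. The longest annotated transcripts of these genes, 7913 and 9592 bases, are the longest of the 10 markers, which otherwise run from 1468 to 4751 bases. Iyd, at 1579 bases, also rose with the slope, at r = 0.415 and rho = 0.436 (adjusted permutation p = 0.0624 and 0.0084). Mpped1, at 3281 bases, fell with it, at r = -0.402 and rho = -0.392 (adjusted permutation p = 0.0624 and 0.021). Without B125 and B176 the r was 0.309 for Iyd and -0.296 for Mpped1. The part of transcript length in the Prox1 and Dsp values was not tested. Library totals had no relation with any marker at an adjusted p under 0.05.

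**Figure D5:**
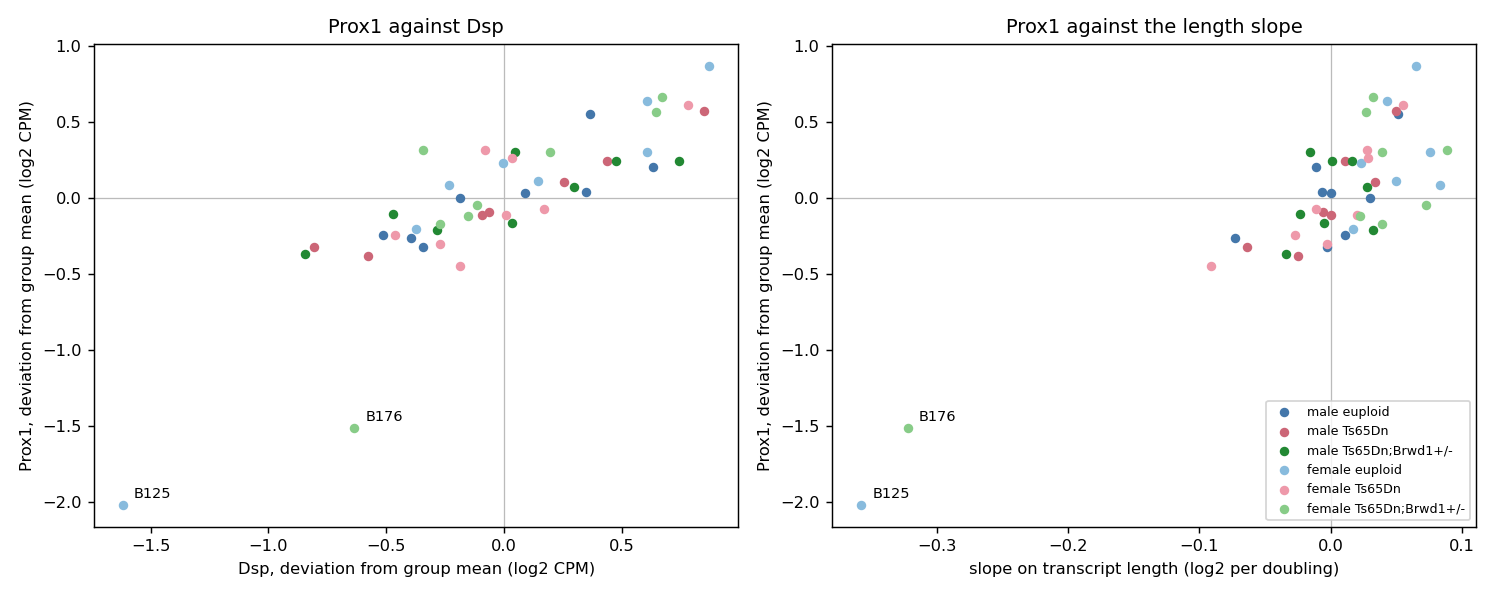
Deviations of Prox1 from its group mean in log2 units on the vertical axis, against those of Dsp on the left and against the length slope of each library in log2 units per doubling of transcript length on the right. The 2 libraries with slopes of -0.357 and -0.322 are the lowest for Prox1, and the relation with Dsp is r = 0.837 with or without them.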

How the data were processed

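RNA-seq libraries of whole adult hippocampus were deposited as raw counts per gene, and the authors made these counts from single reads of poly(A) libraries, which keep no strand, joined from 2 flow cells. The submitters' processing notes name HISAT2 2.1.0, featureCounts 2.0.1 and DESeq2 2.11.40.6 and the builds mm10 and mm9. The authors removed unwanted variation with RUVr before DESeq2, with a number of factors not given in the sources used here, so the main fit here used none. Counts were fitted with edgeR 4.0.16 (TMM normalisation, filterByExpr, robust quasi-likelihood) in R 4.3.3, the 3 genotypes of a sex in 1 fit, and all 6 groups for interactions and sex comparisons. Genes with a Benjamini-Hochberg adjusted p under 0.1 were called. Levels are on the log2 CPM scale (prior count 0.5 per library of average size), and each correlation was taken over residuals from the group means. P-values measure the spread between animals of a group, and no pair of libraries of a group agreed within sampling noise. Alternatives were DESeq2 1.42.0, other normalisation, thresholds and filters, 1 or 3 RUVr factors (from singular vectors of the edgeR deviance residuals), pooled sexes and left-out libraries. The script was tested on simulated data. Named were all 10 members, called genes and the 2 most abundant of each further subfield list, the 3 genes nearest each member, and the most abundant gene of each other-tissue list. The members and lists were chosen with earlier results of these data known. Positions and promoters are from RefSeq, GRCm38.p6, and 25275 of 27179 gene names matched.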

Additional observations from a re-analysis of the deposited data

Results flagged for a closer look

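In 3 of 60 groups of libraries (10 genes in 6 groups), the lowest library lay farther from the others than Dixon's 95% limit allows, and chance flags about 1 group in 20. Prox1 in the female euploid library B125 was at 4.16 log2 CPM, while the other 7 libraries of the group were between 5.98 and 7.05. Prox1 in the female Ts65Dn;Brwd1+/- library B176 was at 4.30, beside 5.64 to 6.47 in the other 7. These are the libraries whose deviations from the group mean fell with transcript length, and the part of that fall in the Prox1 values was not tested. Amigo2 in the male euploid library B84 was at 4.13, beside 4.92 to 5.36 in the other 7, and B84 also had the highest mean level of the neocortex list, at 5.07, with its part in the value not tested.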

How the results depend on the processing

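Of 990 fold changes of the members under other settings, over all comparisons, 910 kept their direction and their side of the threshold, 8 lost and 44 gained a call, and 28 changed sign, none of them called. With both sexes in 1 fit, the Ts65Dn to euploid difference was -0.05 for Prox1, 0.25 for C1ql2, -0.21 for Dsp, 0.01 for Fibcd1, 0.00 for Mpped1 and 0.08 for Bok against the opposite sign in males. The Ts65Dn;Brwd1+/- to Ts65Dn difference was then -0.10 for Bok against males and -0.30 for Dsp, -0.05 for Wfs1 and 0.03 for Fibcd1 against females, and the Ts65Dn;Brwd1+/- to euploid difference was 0.10 for Mpped1 and -0.03 for Bok against males and -0.06 for C1ql2 against females. In Ts65Dn;Brwd1+/- against Ts65Dn males, C1ql2 was 0.00 with DESeq2 and 3 RUVr factors and 0.22, and Mpped1 -0.01, without the libraries against their label. Without these, Fibcd1 and Bok were both at -0.03 in males and Fibcd1 at -0.01 in females for Ts65Dn;Brwd1+/- against euploid. Without B125 and B176, Fibcd1 was at -0.00 and Iyd at -0.05 in that female comparison and Amigo2 at -0.02 for the interaction of Ts65Dn;Brwd1+/- against Ts65Dn. In euploid females against males, Prox1 was -0.06 and Tdo2 -0.02 with 1 or 3 RUVr factors, and -0.06 and -0.01 with DESeq2 and 3. The number of called members in Ts65Dn against euploid males went from 1 to 0 at an adjusted p of 0.05 (0.493% of all genes called), with all 6 groups in the fit (0.574%), with both sexes pooled (3.43%) and without the libraries against their label (1.54%). In females it went from 2 to 1 at 0.05 (1.54%), with upper-quartile normalisation (3.07%), without a filter (1.82%), without the libraries against their label (1.9%) and with only the animals whose identifiers start with B (1.86%), and to 0 with both sexes pooled (3.43%). With 1 RUVr factor it was 2 for Ts65Dn;Brwd1+/- against Ts65Dn males (1.46%), 1 for Ts65Dn;Brwd1+/- against euploid males (1.92%) and females (9.28%) and 2 for euploid females against males (19.3%). With 3 factors these were 3 (3.47%), 2 in males (4.97%) and 4 in females (18.5%), and 2 (26.8%), and the interaction of Ts65Dn and sex gave 1 (13.2%), as it did with DESeq2 (0.574%). With DESeq2 and 3 factors the counts for Ts65Dn;Brwd1+/- against Ts65Dn and against euploid were 3 (5.89%) and 4 (7.85%) in males and 3 (4.9%) and 4 (20.9%) in females, with 2 (14.8%) and 2 (1.41%) for the interactions, 2 (28%) for euploid females against males and 1 (2.96%) for Ts65Dn females against males. With both sexes pooled, 1 member was called for Ts65Dn;Brwd1+/- against euploid (3.41%), and without B125 and B176 2 were called for euploid females against males (18.6%). Leaving out 1 library gave 0 to 1 in Ts65Dn against euploid males (0.495% to 1.33%), 1 to 3 in females (1.66% to 9.32%), 0 to 3 in Ts65Dn;Brwd1+/- against euploid females (0.476% to 8%) and 1 to 2 in euploid females against males (5.12% to 14.2%, and 2 without female euploid B125 or male euploid B100), and 0 in all others. The dentate gyrus minus CA1 balance by the median of the members was -1.55, -1.37 and -1.72 in euploid, Ts65Dn and Ts65Dn;Brwd1+/- males and -1.79, -1.52 and -1.78 in females. The causes were not tested. No paired analysis was possible because the identifiers of the adult animals are shared with no other group.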

Other observations

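The same 10 genes were also counted in E17.5 (embryonic) forebrain from 8 euploid and 7 Ts65Dn embryos, a region and age in which the adult subfields are still forming. Mpped1 was the most abundant, at 9.15 ± 0.46 log2 CPM in euploid (SD, n = 8) and 8.35 ± 0.96 in Ts65Dn (SD, n = 7). Bok was at 5.49 ± 0.17 and 5.37 ± 0.10, and Prox1 at 4.81 ± 0.43 and 4.58 ± 0.63. Dsp, at 1.57 ± 0.48 and 1.57 ± 0.65, Tdo2, at -1.33 ± 0.97 and -1.23 ± 0.95, and Iyd, at -2.48 ± 1.3 and -1.52 ± 0.28, were low. No test was made.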
